A study of Mus musculus with 8 samples.

Results

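Respiratory complex I (NADH:ubiquinone oxidoreductase) was examined here through 42 nuclear genes in liver endothelial cells (ECs) of mice lacking the endocytic receptor LRP1 in the endothelium. The members were the genes whose symbols begin with Nduf followed by the letter of a subunit class (a, b, c, s or v) or by af, for assembly factor, and a number. They were 42 of the 22520 protein-coding genes in the deposited table. By their known roles, 3 encode core subunits of the NADH-oxidizing (N) module, 4 encode core subunits of the ubiquinone-reducing (Q) module, 9 encode accessory subunits of the matrix arm, 19 encode accessory subunits of the membrane arm and 6 encode assembly factors. The remaining gene, Ndufa4, carries a complex I name, but its product is now regarded as a subunit of cytochrome c oxidase (complex IV). Ndufb1, Ndufaf7 and Ndufaf8 were not analysed here.

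The libraries were made from 4 WT (LRP1 f/f; Cdh5-CreER-/-) and 4 LRP1 eKO (LRP1 f/f; Cdh5-CreER+/-) samples, labelled as C57BL/6 liver microvesicular cells of postnatal day 14. Both groups carried the floxed alleles, the WT mice were littermates, and Cdh5 drives Cre in ECs. Only the LRP1 eKO group carried CreER, so that effects of CreER itself and of missing Lrp1 cannot be told apart, and the tamoxifen schedule is not given in the sources used here. The cells were selected with antibody against PECAM-1. The labels do not say whether libraries of a group came from separate animals, so p-values measure the spread between these samples. The unit, called signal below, is a quantile-normalized value whose scale before that step is not stated, and the depth behind it is unknown. Changes are given as LRP1 eKO minus WT on the log2(signal + 1) scale, tested with limma over 11391 genes, and a gene passed at a Benjamini-Hochberg adjusted p under 0.05.

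Lrp1, the targeted gene, had signals of 61.6, 59.0, 56.2 and 85.1 in the WT libraries and of 6.01, 2.16, 5.15 and 4.32 in the LRP1 eKO libraries. Every LRP1 eKO library was below every WT library. The remaining signal was 6.74% of the WT mean, and WT replicate 4 stood highest. WT replicate 4 was also the WT library farthest from the WT median for 61.7% of all genes tested, and it stood high in most complex I genes, as described below. Among LRP1 eKO libraries, replicate 2 was farthest from its group's median for 37.2% of genes. The endothelial markers fixed for this work were present at low signals, with Cdh5 between 1.26 and 4.99 and Pecam1 between 1.53 and 3.85. Fibroblast genes had high signals, with Col1a1 between 326 and 500 and Dcn between 441 and 581. Whether signals are scaled by gene length is not stated, so that these levels cannot be ranked against each other as transcript numbers. The marker signals do not bear out the endothelial label, and the makeup of the samples is in doubt, so that ECs is used below only as the name of the samples.

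Complex I is the entry point for electrons from NADH into the mitochondrial respiratory chain. Its matrix arm passes electrons from a flavin through a chain of iron-sulfur clusters to ubiquinone, and its membrane arm pumps protons. Core subunits carry out catalysis and are split between the nuclear and the mitochondrial genome, accessory subunits surround and stabilize the core, and assembly factors build the modules but are absent from the finished enzyme. ECs obtain much of their energy from glycolysis, and their mitochondria are also known for biosynthetic and signaling roles.

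Promoters of respiratory chain genes are textbook targets of NRF1 and of ETS-family factors such as GABP, and the members were therefore searched for both core motifs. The windows were those of the RefSeq table for GRCm38.p6, from 250 bases before to 50 bases after the transcription start, and 37 members matched. The NRF1 core GCATGCGC was found on either strand in 5 of 39 member promoters (12.8%), compared with 2.71% of all 32851 promoters and 5.26% of the promoters of genes tested. For nuclear subunits of complexes II to V it was found in 7 of 32 promoters (21.9%). The 5 members with the NRF1 core were Ndufa6, Ndufa8, Ndufa11, Ndufaf4 and Ndufaf5. The ETS core CCGGAAG was found in 5 of 39 member promoters (12.8%), compared with 8.86% of all promoters and 17.5% of those of genes tested. For complexes II to V it was found in 12 of 32 promoters (37.5%). The 5 members with the ETS core were Ndufs3, Ndufs8, Ndufb6, Ndufb7 and Ndufaf1. No member promoter held both motifs, and a match describes letters, not a bound site.

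The windows of Ndufa6 and Ndufaf4 are shown because both hold the NRF1 core while 1 gene was lower in LRP1 eKO libraries and the other was not, and the window of Ndufs3 is shown as a core subunit gene with the ETS core. The Ndufs3 window was chosen after values were seen. Each is 60 bases long, 5′ to 3′ on the strand of the gene, with the motif in capitals. They lie at chr15:82354341-82354400 (minus strand), chr4:24897944-24898003 (plus strand) and chr2:90904722-90904781 (minus strand) of GRCm38.p6. In the Ndufaf4 window, the capitals mark 2 overlapping matches, 1 on each strand.
Ndufa6: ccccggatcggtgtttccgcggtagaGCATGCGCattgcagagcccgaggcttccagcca
Ndufaf4: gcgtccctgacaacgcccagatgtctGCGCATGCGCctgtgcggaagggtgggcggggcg
Ndufs3: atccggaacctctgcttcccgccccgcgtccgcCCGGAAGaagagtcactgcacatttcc

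Transcripts of nuclear complex I genes were modestly lower in LRP1 eKO libraries. Of 42 members, all of which passed the filter on low values, 20 were lower, 0 were higher and 22 did not pass the test. The share lower was 47.6%, compared with 22.2% of all genes tested, and 19.0% of all genes were higher. The median log2 fold change of the members was -0.19, with a range from -0.49 to 0.07, beside a median of -0.0095 over all genes tested. In terms of signal, the LRP1 eKO mean was 87.1% of the WT mean for the median member, and 0 members reached a 2-fold change, a size that 1.66% of all genes reached in either direction with an adjusted p under 0.05. For 22 members (22.5% of all genes), every LRP1 eKO library was below every WT library, and for 0 members was every LRP1 eKO library above. In bulk libraries, fewer cells of a type and less RNA per cell cannot be told apart.

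WT replicate 4 was the highest WT library for 39 of the 42 members and the highest of all 8 libraries for 38. The median coefficient of variation over the members was 10.7% among WT libraries, 3.36% among WT libraries without replicate 4 and 4.62% among LRP1 eKO libraries. Without WT replicate 4, the median log2 fold change went from -0.19 to -0.12 and 34 of 42 members had a lower mean, while 21 members were lower at an adjusted p under 0.05 and 0 were higher. In that fit 22.4% of all genes were lower and 19.5% higher, with a median log2 fold change of -0.0047. The count of members that were lower was smallest without LRP1 eKO replicate 3, at 15, where 17.9% of all genes were lower. Of the 20 calls, 15 held under every alternative fit, and the calls lost in at least 1 fit included those of Ndufb2, Ndufb5, Ndufa12 and Ndufa9.

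**Figure D1:**
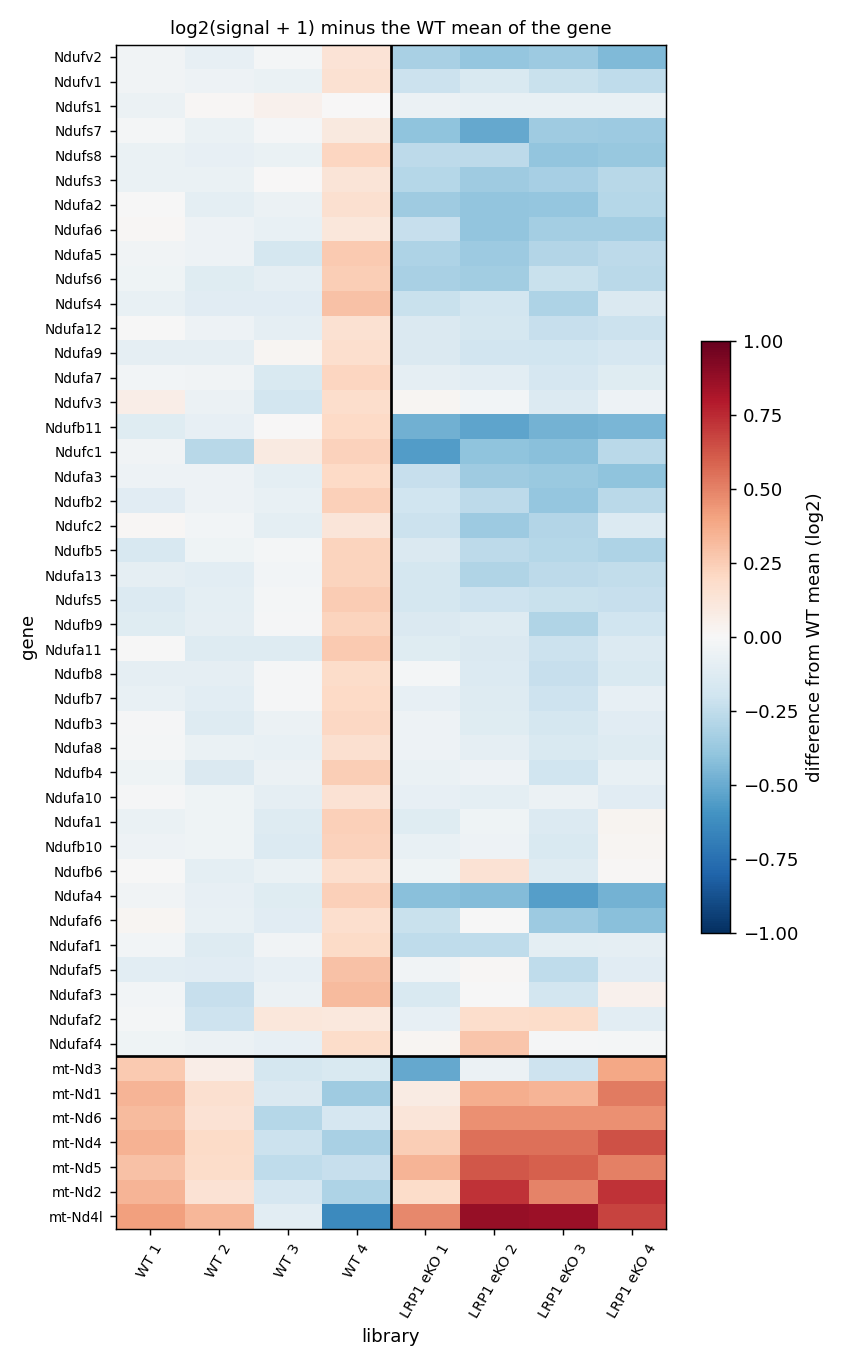
Each row is a gene and each column a library, and the colour gives log2(signal + 1) minus the mean of the 4 WT libraries. The 41 nuclear members shown stand above the horizontal line and the 7 subunits encoded in mitochondrial DNA below it, and the WT 4 column is the highest WT value for 39 of these 41.

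Core subunits of both matrix arm modules were among the lower members. In the Q module, which hands electrons to ubiquinone, Ndufs3, Ndufs7 and Ndufs8 were lower, and in each of them every LRP1 eKO library lay below every WT library. In the N module, which takes electrons from NADH, 2 of 3 genes were lower (median log2 fold change -0.21). The groups did not overlap in any of the 3, but nearly met in Ndufs1. Over all genes tested, 22.2% were lower, and 22.5% had every LRP1 eKO library below every WT library. Whether the modules differ from each other was not tested.

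Ndufs7 (chromosome 10, 80249121 to 80256794, GRCm38) encodes the subunit holding the last iron-sulfur cluster before ubiquinone. Its signals were 62.4, 60.4, 62.8 and 67.6 in WT libraries and 47.5, 44.1, 49.3 and 49.0 in LRP1 eKO libraries. The groups were well apart, with the WT libraries all above 60 and the LRP1 eKO libraries all below 50. The mean went from 63.3 ± 3.05 to 47.5 ± 2.37 (SD, n = 4 per group), and the log2 fold change was -0.41 (standard error 0.052, adjusted p = 2.7e-04 by limma). Ndufs8 (chromosome 19, 3908863 to 3912774), whose product carries a pair of clusters next to that of Ndufs7, had signals of 28.5, 28.1, 28.5 and 34.8 in WT and of 24.7, 24.7, 22.4 and 22.7 in LRP1 eKO libraries. WT replicate 4 stood apart here, and the other 3 WT libraries were still above all LRP1 eKO libraries. The log2 fold change was -0.32 (adjusted p = 0.0065 by limma) and -0.25 without WT replicate 4 (adjusted p = 0.0026).

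Ndufs3 (chromosome 2, 90894634 to 90904827), a structural core subunit of the Q module whose promoter window is printed above, had signals of 60.9, 61.2, 64.2 and 70.1 in WT and of 52.4, 49.8, 50.6 and 52.5 in LRP1 eKO libraries. The printed window lies upstream of the RefSeq start but inside the gene span given here, which is that of GENCODE, so the 2 annotations differ in the start. The groups did not overlap, and the log2 fold change was -0.31 (adjusted p = 0.0013 by limma). Of its 50-base transcript stretches, 39.7% also occur in other annotated genes, among them the opposite-strand neighbour Kbtbd4, and how shared reads were assigned is not stated.

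In the N module, Ndufv2 (chromosome 17, 66078638 to 66101559), an iron-sulfur protein, had signals of 75.6, 72.8, 76.2 and 85.0 in WT and of 61.6, 58.9, 59.9 and 56.6 in LRP1 eKO libraries. Its groups did not overlap, and the mean went from 77.4 ± 5.29 to 59.2 ± 2.08 (SD, n = 4 per group). The log2 fold change was -0.38 (adjusted p = 5.5e-04 by limma). Ndufv1 (chromosome 19, 4007384 to 4012806), the flavoprotein that binds NADH, was at 43.7, 43.4, 42.8 and 50.1 in WT and at 38.6, 40.3, 38.4 and 37.4 in LRP1 eKO libraries. All LRP1 eKO libraries were lower, with a log2 fold change of -0.21 (adjusted p = 0.015 by limma). Ndufs1 (chromosome 1, 63143596 to 63176833), the largest N module subunit, differed least of the 3 core N module genes. Its signals were 26.8, 28.1, 28.8 and 28.1 in WT and 26.8, 26.5, 26.5 and 26.5 in LRP1 eKO libraries, so that the lowest WT and the highest LRP1 eKO library nearly met. The log2 fold change of Ndufs1 was -0.071 (adjusted p = 0.18 by limma).

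**Figure D2:**
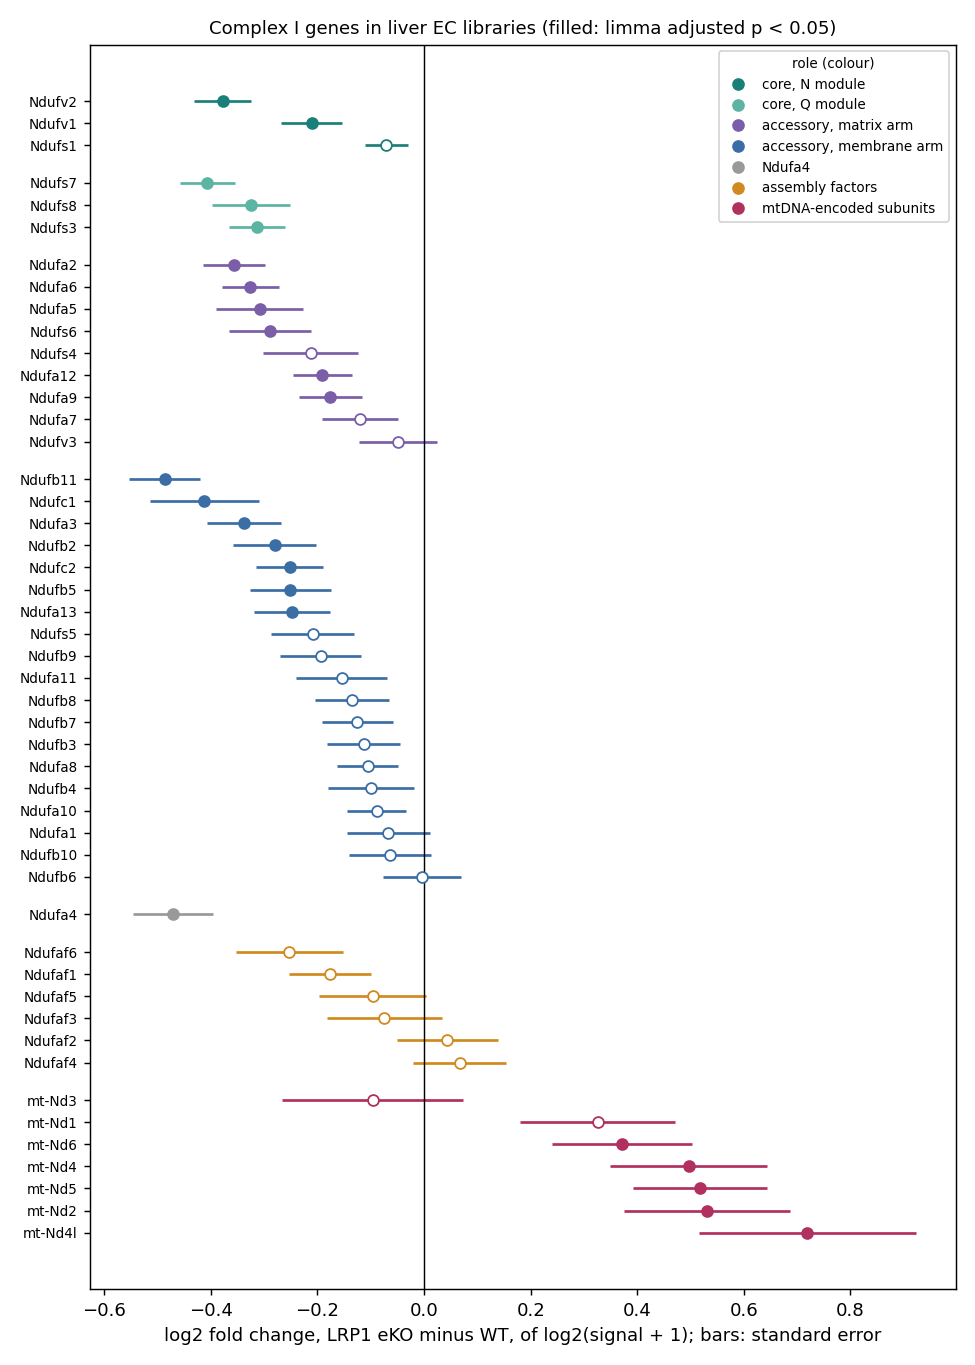
Log2 fold changes of log2(signal + 1), LRP1 eKO minus WT, for 41 nuclear members and the 7 subunits encoded in mitochondrial DNA, ordered within each role. Bars are standard errors from limma, and filled points have an adjusted p under 0.05. All 35 nuclear subunit genes shown lie left of 0, and 6 of the 7 mitochondrially encoded genes lie right of it.

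Accessory subunits were lower in 13 of 28 genes, and all 28 had a lower LRP1 eKO mean (median log2 fold change -0.19). A lower LRP1 eKO mean was found in 51.6% of all genes tested. In the matrix arm, 6 of 9 were lower (median -0.21), namely Ndufa2, Ndufa5, Ndufa6, Ndufa9, Ndufa12 and Ndufs6. In the membrane arm, 7 of 19 were lower (median -0.15), namely Ndufa3, Ndufa13, Ndufb2, Ndufb5, Ndufb11, Ndufc1 and Ndufc2. The share in the membrane arm, 36.8%, was closer to the 22.2% of all genes than that of the matrix arm, 66.7%. Whether the arms differ from each other was not tested.

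Ndufb11 (chromosome X, 20615326 to 20617619), a membrane arm subunit encoded on the X chromosome, had the largest decrease of the 42 members. Its signals were 86.9, 89.6, 95.2 and 109 in WT and 67.6, 65.4, 68.1 and 68.6 in LRP1 eKO libraries. The LRP1 eKO libraries were tightly grouped and all lay below the WT libraries, and the LRP1 eKO mean was 70.8% of that in WT libraries. The log2 fold change was -0.49 (standard error 0.067, adjusted p = 4.3e-04 by limma) and -0.42 without WT replicate 4. Of its 50-base stretches, 17.5% are shared with other genes, including Rbm10 on the opposite strand.

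Ndufc1, a small membrane arm subunit, had signals of 56.4, 47.4, 61.5 and 67.9 in WT and of 39.0, 43.6, 42.9 and 47.8 in LRP1 eKO libraries. The groups overlapped at WT replicate 2 and LRP1 eKO replicate 4, and the log2 fold change was -0.41 (standard error 0.10, adjusted p = 0.010 by limma). Ndufa3, also of the membrane arm, had signals of 278, 279, 269 and 332 in WT and of 246, 226, 223 and 218 in LRP1 eKO libraries. Its groups did not overlap, and its log2 fold change was -0.34 (adjusted p = 0.0041 by limma).

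In the matrix arm, Ndufa2, a thioredoxin-fold subunit of the N module, had signals of 150, 141, 144 and 168 in WT and of 117, 114, 115 and 123 in LRP1 eKO libraries. The groups were separate, and the log2 fold change was -0.36 (adjusted p = 0.0011 by limma). Ndufa6, a subunit of the LYR-motif family that binds the mitochondrial acyl carrier protein, had signals of 185, 177, 174 and 198 in WT and of 156, 140, 145 and 145 in LRP1 eKO libraries. The groups did not overlap, and the log2 fold change was -0.33 (adjusted p = 0.0011 by limma). Of 18 lower members with a promoter window, 1 (Ndufa6) held the NRF1 core, compared with 4 of 19 members that did not pass the test.

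The acyl carrier protein itself, Ndufab1, is a complex I subunit whose symbol falls outside the rule. Its signals were 122, 119, 112 and 130 in WT and 104, 107, 101 and 102 in LRP1 eKO libraries. The groups did not overlap, and the log2 fold change was -0.22 (adjusted p = 0.0069 by limma).

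The 15 accessory subunits that did not pass the test had log2 fold changes down to -0.21. Of these, Ndufs4 (-0.21, adjusted p = 0.082), Ndufs5 (-0.21, adjusted p = 0.054) and Ndufb9 (-0.19, adjusted p = 0.066 from limma) came closest by size. Ndufv3, an N module subunit, had a log2 fold change of -0.050 (adjusted p = 0.61 by limma). Ndufb6, a membrane arm subunit, had signals of 82.0, 77.0, 78.8 and 92.9 in WT and of 79.9, 91.5, 75.2 and 83.0 in LRP1 eKO libraries. Its groups overlapped almost completely, and its log2 fold change was -0.0044 (standard error 0.074).

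Ndufa4, now placed in complex IV, had the highest signal of the members, 407, 394, 384 and 492 in WT and 311, 308, 284 and 300 in LRP1 eKO libraries. The groups were well apart, with WT replicate 4 highest. The mean went from 419 ± 49.3 to 301 ± 12.1 (SD, n = 4 per group), with a log2 fold change of -0.47 (standard error 0.075, adjusted p = 0.0010 by limma). With Ndufa4 set aside, 19 of 41 members were lower, beside 22.2% of all genes tested.

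**Figure D3:**
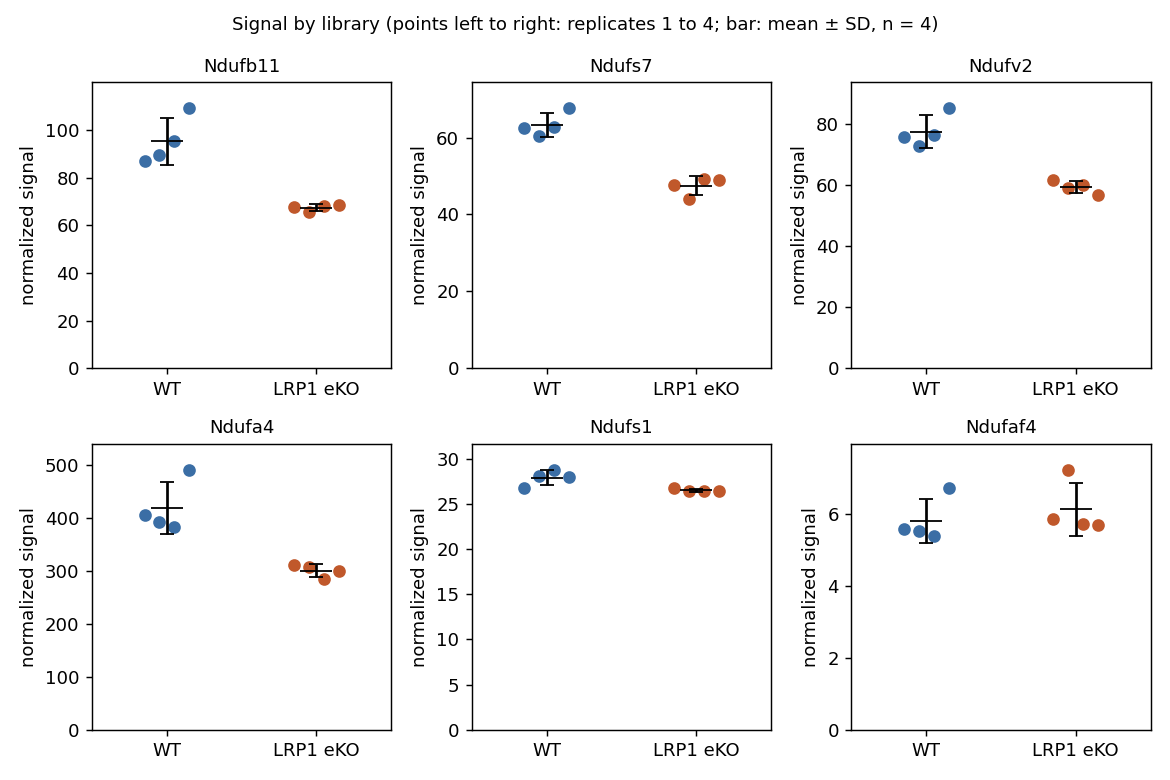
Normalized signal in each library for 6 members, with replicates 1 to 4 from left to right in each group and bars for the mean ± SD (n = 4). Ndufb11, Ndufs7, Ndufv2 and Ndufa4 show separate groups, Ndufs1 shows groups that nearly touch, and Ndufaf4 shows overlapping groups with WT replicate 4 and LRP1 eKO replicate 2 above the others.

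None of the 6 assembly factors passed the test (0 lower and 0 higher), and 4 had a lower and 2 a higher LRP1 eKO mean (median log2 fold change -0.086). At an unadjusted p under 0.05, 2 of the 6 were lower, beside 26.7% of all genes tested, so that this count says nothing particular about the assembly factors. All 6 had signals under 16, which is where the added 1 on the log scale reduces a change most. Ndufaf6, required for the module that contains ND1, had signals of 3.39, 3.12, 3.00 and 3.87 in WT and of 2.72, 3.32, 2.37 and 2.24 in LRP1 eKO libraries. LRP1 eKO replicate 2 lay within the WT range, and the log2 fold change was -0.25 (standard error 0.10, adjusted p = 0.069 by limma). Ndufaf1, a factor for the membrane arm, had signals of 9.99, 9.27, 9.97 and 11.8 in WT and of 8.40, 8.39, 9.47 and 9.54 in LRP1 eKO libraries. The groups overlapped, with a log2 fold change of -0.18 (adjusted p = 0.093 by limma).

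Ndufaf5, which hydroxylates an arginine of the Ndufs7 protein, had a log2 fold change of -0.096 (adjusted p = 0.46 by limma), and Ndufaf3, which assembles the Q module together with Ndufaf4, had one of -0.075 (adjusted p = 0.60). Ndufaf2, a paralog of Ndufa12 that acts late in assembly, had signals of 13.3, 11.5, 14.6 and 14.5 in WT and of 12.6, 15.3, 15.4 and 12.4 in LRP1 eKO libraries. Its groups overlapped, and its log2 fold change was 0.044 (adjusted p = 0.73 by limma). Ndufaf4 (chromosome 4, 24898083 to 24905001), whose window with the NRF1 core is printed above, was at 5.58, 5.52, 5.39 and 6.72 in WT and at 5.87, 7.23, 5.72 and 5.70 in LRP1 eKO libraries. A single library stood high in each group, WT replicate 4 and LRP1 eKO replicate 2, and the log2 fold change of 0.067 (adjusted p = 0.56 by limma) was within the spread between libraries.

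A further list of 12 complex I assembly factors with other names, chosen by role, had 9 genes tested, of which 1 was lower and 0 were higher (median log2 fold change 0.021). The share lower was 11.1%, beside 22.2% of all genes tested, and 19.0% of all genes were higher. The lower gene was Nubpl, an iron-sulfur carrier for complex I, with signals of 2.70, 2.72, 2.83 and 3.67 in WT and of 2.37, 2.27, 2.18 and 2.10 in LRP1 eKO libraries. Its groups did not overlap, with a log2 fold change of -0.30 (adjusted p = 0.018 by limma), and the adjusted p was 0.052 without LRP1 eKO replicate 4. The difference between assembly factors and subunits was not tested.

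The 7 subunits encoded in mitochondrial DNA form the proton-pumping core of the membrane arm. Of these, 6 went the other way, with a higher LRP1 eKO mean, as did 5516 of the 11391 genes tested. Of 7 genes, 5 were higher in LRP1 eKO libraries (19.0% of all genes were) and 0 were lower, with a median log2 fold change of 0.50. mt-Nd4l had signals of 694, 655, 485 and 335 in WT and of 729, 954, 942 and 832 in LRP1 eKO libraries. The WT libraries were widely spread, and all lay below the LRP1 eKO libraries. Its log2 fold change was 0.72 (standard error 0.20, adjusted p = 0.019 by limma). mt-Nd5 had signals of 779, 723, 534 and 543 in WT and of 804, 980, 964 and 903 in LRP1 eKO libraries, again without overlap, and a log2 fold change of 0.52 (adjusted p = 0.0091 by limma).

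mt-Nd2 (log2 fold change 0.53, adjusted p = 0.022 by limma), mt-Nd4 (0.50, adjusted p = 0.023) and mt-Nd6 (0.37, adjusted p = 0.046) were also higher, with overlapping groups. Each of these 3 calls was lost in several alternative fits, and that of mt-Nd6 also with the replicate number as a block (adjusted p = 0.078). mt-Nd1 had signals of 1763, 1558, 1262 and 1086 in WT and of 1473, 1789, 1763 and 2001 in LRP1 eKO libraries, and its log2 fold change of 0.33 did not pass (adjusted p = 0.098 by limma). mt-Nd3 had a log2 fold change of -0.097 (adjusted p = 0.67 by limma). The number of these genes that were higher was between 2 and 6 over the alternative fits, with 2 with no filter, without WT replicate 3 and without LRP1 eKO replicate 4, and mt-Nd4l and mt-Nd5 passed in every fit. Signals this high fall near the top of the quantile-normalized table, where a value depends on the rank of the gene and several libraries share 1 value, such as the signal of 1262 of mt-Nd6 in 3 LRP1 eKO libraries. mt-Nd5 and mt-Nd6 lie on opposite strands with overlapping ends, and use of strand in counting is not stated. Of the other 6 mitochondrially encoded genes, examined after these values were seen, 5 had a higher LRP1 eKO mean. Both mt-Co1 (log2 fold change 0.25, adjusted p = 0.025 by limma) and mt-Cytb (0.25, adjusted p = 0.021) passed the test, with overlapping groups. The signal of mt-Co1 was 6018 in every WT library and in LRP1 eKO replicate 1, and 7605 in LRP1 eKO replicates 2, 3 and 4. Its call thus rests on shared values, without spread among WT libraries. For mt-Co3 the log2 fold change was -0.064 (adjusted p = 0.51 by limma).

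Set side by side within a library, the summed signal of the 42 nuclear members was 3482, 3406, 3420 and 4108 in WT and 3114, 3039, 2936 and 3044 in LRP1 eKO libraries, and every LRP1 eKO sum was below every WT sum. The summed signal of the 7 mitochondrially encoded subunits was 7004, 6273, 4881 and 4543 in WT and 6116, 7788, 7546 and 8141 in LRP1 eKO libraries, with overlap at LRP1 eKO replicate 1. WT replicate 4 had the highest nuclear and the lowest mitochondrial sum of the WT libraries. The ratio of mitochondrial to nuclear sums was 2.01, 1.84, 1.43 and 1.11 in WT and 1.96, 2.56, 2.57 and 2.67 in LRP1 eKO libraries. LRP1 eKO replicate 1 lay within the WT range, and the other 3 LRP1 eKO libraries lay above it.

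**Figure D4:**
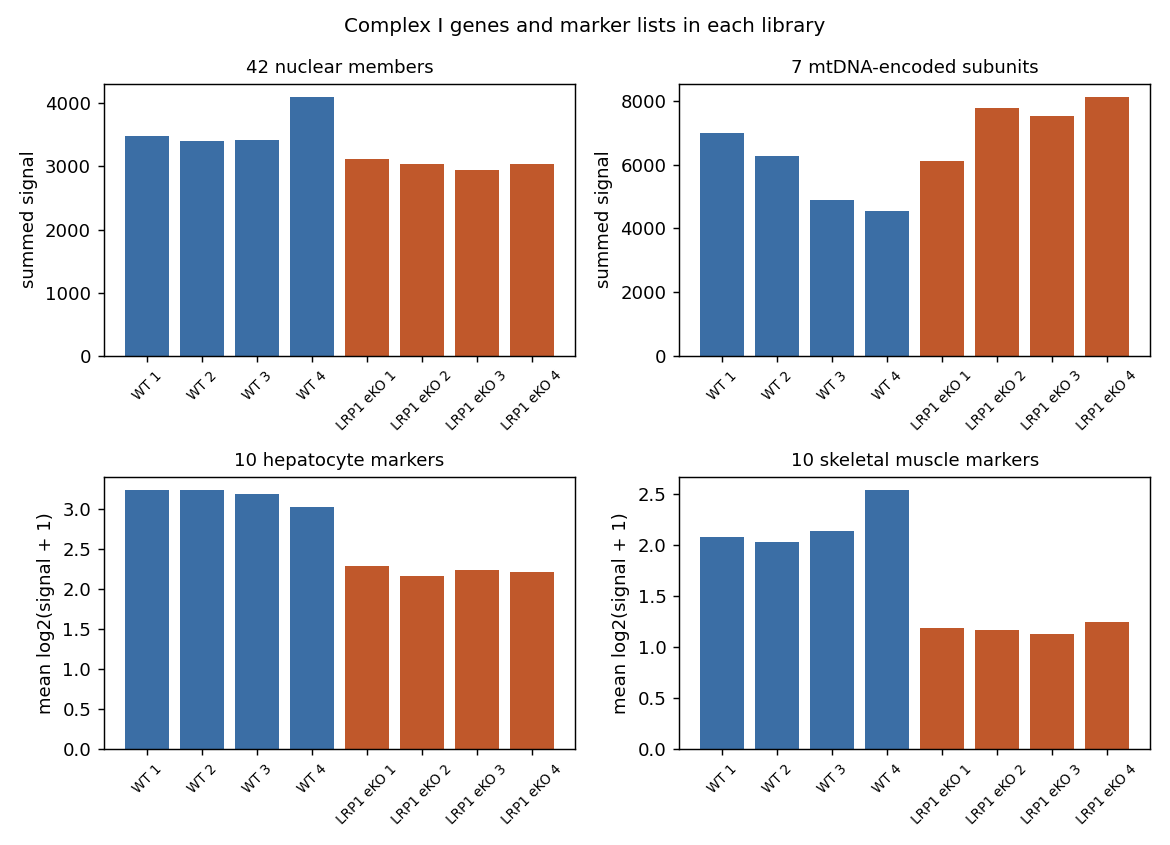
Bars give, for each library, the summed signal of the 42 nuclear members, the summed signal of the 7 subunits encoded in mitochondrial DNA, and the mean log2(signal + 1) of 10 hepatocyte and of 10 skeletal muscle markers. Nuclear sums are from 3406 to 4108 in WT and from 2936 to 3114 in LRP1 eKO libraries, and both marker lists are lower in LRP1 eKO libraries.

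Genes with neighbouring functions gave the following counts, and each list was chosen by function with earlier results of these data known. All 37 nuclear subunits of complexes II to V had a lower LRP1 eKO mean, and 26 were lower and 0 higher at an adjusted p under 0.05 (median log2 fold change -0.22). The share lower was 70.3%, beside 47.6% of the complex I members and 22.2% of all genes tested, and 51.6% of all genes had a lower LRP1 eKO mean. Atp5g2 (log2 fold change -0.36, adjusted p = 8.2e-05 by limma) and Atp5l (-0.38, adjusted p = 0.0016), both of the ATP synthase, had the smallest adjusted p. Of 13 genes of iron-sulfur cluster assembly, which supplies the cofactors of the matrix arm, 4 were lower (Iscu, Isca1, Fdxr and Lyrm4) and 2 were higher (Hspa9 and Nfs1), with a median of -0.12. Of this list 30.8% were lower, which is near the 22.2% of all genes tested, and 19.0% of all genes were higher. Iscu, the scaffold protein, and Isca1 had log2 fold changes of -0.32 and -0.28 (adjusted p = 4.1e-04 and 8.3e-04 by limma). Of 9 genes of ubiquinone synthesis tested, 3 were lower and 0 higher (median -0.052), namely Coq4, Coq9 (-0.23, adjusted p = 0.022 by limma) and Coq7 (-0.29, adjusted p = 0.026). In this list 33.3% were lower, beside 22.2% of all genes tested. The calls of Lyrm4, Nfs1, Coq4, Coq7 and Coq9 were each lost without at least 1 of the libraries, and that of Nfs1 also with the replicate number as a block (adjusted p = 0.073). In complexes II to V, the calls of Sdhd, Uqcr11, Cox5b, Cox6c, Cox7a2, Atp5b and Atp5j were likewise each lost without at least 1 library.

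Of 9 tested regulators of mitochondrial biogenesis, 1 was lower and 1 was higher (median log2 fold change -0.038). In this list 11.1% were lower, beside 22.2% of all genes tested, and 19.0% of all genes were higher. Nrf1, the factor whose core motif is described above, had signals of 9.63, 11.2, 9.43 and 10.1 in WT and of 8.11, 8.35, 9.32 and 8.33 in LRP1 eKO libraries. The groups were separated only narrowly, at LRP1 eKO replicate 3, and the log2 fold change was -0.22 (adjusted p = 0.025 by limma). The call was lost in some alternatives, for example with an adjusted p of 0.053 with the replicate number as a block. Pprc1, a PGC-1-related coactivator, had signals of 10.9, 10.1, 9.91 and 9.61 in WT and of 11.4, 12.5, 11.7 and 11.5 in LRP1 eKO libraries. All LRP1 eKO libraries were higher, with a log2 fold change of 0.20 (adjusted p = 0.017 by limma). Ppargc1a and Ppargc1b were below the filter.

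Markers of other cell types differed between the same groups as the complex I genes. For the counts below, 22.2% of all genes tested were lower and 19.0% were higher, and 51.6% had a lower LRP1 eKO mean whether or not they passed. Of 10 hepatocyte markers, 6 were tested and all 6 were lower in LRP1 eKO libraries (median log2 fold change -1.37). Over all 10, the mean log2 level was 3.24, 3.24, 3.19 and 3.03 in WT and 2.16 to 2.29 in LRP1 eKO libraries. WT replicate 4 was the lowest WT library in this level. The summed signal of this list was 1451 to 1515 in WT and 603 to 887 in LRP1 eKO libraries, and most of it was that of Trf. In this sum, WT replicate 4 was the highest WT library. Alb was between 15.7 and 24.7 in WT and between 5.70 and 6.83 in LRP1 eKO libraries. Of 11 skeletal muscle markers, 10 were in the table and 6 were tested, and 5 were lower (median -1.80). Over the 10 in the table, the mean log2 level was 2.07, 2.03, 2.14 and 2.54 in WT and 1.18, 1.17, 1.12 and 1.24 in LRP1 eKO libraries. WT replicate 4 was highest here, as it was for 39 complex I genes, whereas it was the lowest WT library in the hepatocyte level. The summed signal of this list was 73.3 to 108 in WT and 50.1 to 52.2 in LRP1 eKO libraries, and Ckm and Myh4 were at or near 0 in all libraries. Most of the LRP1 eKO sum was Des, at 37.4 to 49.2 in WT and 43.2 to 44.9 in LRP1 eKO libraries. Des was the tested muscle marker that was not lower (log2 fold change 0.069), and it is also on the stellate cell and fibroblast list.

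Macrophage markers were higher in mean for 8 of 8 genes tested, but 1, Csf1r, passed the test. Over the 11 macrophage markers in the table, the summed signal was 111 to 218 in WT libraries, lowest in WT replicate 4. It was 384 to 715 in LRP1 eKO replicates 1, 3 and 4, and 52.2 in LRP1 eKO replicate 2. Timd4 and Clec4f were at 0 in all WT libraries. LRP1 eKO replicate 2 did not stand apart in the summed signal of complex I members. All 7 endothelial markers tested had a higher LRP1 eKO mean and 2, Cdh5 and Eng, passed the test. Over all 11 on that list, summed signals were 23.5 (WT replicate 4) to 32.3 in WT and 36.2 to 57.0 in LRP1 eKO libraries. Of 8 stellate cell and fibroblast markers tested, 3 (Dcn, Lum and Pdgfra) were lower and 0 were higher. Over all 10 on that list, summed signals were 2031 (WT replicate 4) to 2344 in WT and 1774 to 2236 in LRP1 eKO libraries. Of the erythroid markers 1 was tested, Alas2, which was lower (log2 fold change -0.40), and 0 of 8 lymphocyte markers passed the filter. The part of these cell type markers in the values of the complex I genes was not tested.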

How the data were processed

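Libraries were prepared with a TruSeq kit from RNA of 4 WT and 4 LRP1 eKO liver EC samples, grouped by their labels. The authors deposited a quantile-normalized signal for each of 22520 genes. The submitters' processing notes name TopHat2, Cufflinks and mm10, whereas the paper's methods name STAR, featureCounts and edgeR; neither describes this table, so the unit before normalization and the depth of the libraries are unknown, and normalization removes a global shift between groups.

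Each deposited signal was converted to log2(signal + 1). Genes reaching a signal of 1 in 4 or more libraries (11391 genes) were fitted in R 4.3.3 with limma 3.58.1. Genotype was the sole term, variances were moderated with a trend, and p-values were adjusted by the Benjamini-Hochberg method. The count model named in the methods was not used, since no counts were analysed here. Precision was judged from the spread between libraries. The script was tested on simulated data with a log2 change of 2 in 200 genes, of which 199 were recovered, with 9 false calls. Changes as small as those of the members were not simulated.

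The members and gene lists were chosen with earlier results of these data known. The genes named were the core subunits, assembly factors, Ndufa4, the 8 lowest and 4 highest log2 fold changes, mitochondrially encoded subunits and the smallest adjusted p of each related list. The individual result of 1 member is not reported here. Other members, the marker genes and the Ndufs3 window were named after their values were seen. Positions and shared sequence were taken from GENCODE M21 (GRCm38), promoters from RefSeq (GRCm38.p6). The settings varied were the pseudocount (0.1 and 5), the filter (none, or a mean signal of at least 5), the limma fit (no trend, robust, array weights, or the replicate number as a block), trimmed-mean centring, the thresholds, arithmetic means in place of log means, and the omission of each library.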

Additional observations from a re-analysis of the deposited data

Results flagged for a closer look

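In groups of 4 libraries, the gap between the highest or lowest library and its nearest neighbour was divided by the range of the group, and values above Dixon's critical value at the 95% level were singled out. Of 46 groups examined, 8 passed this limit, where chance gives about 1 in 20, or 2.3. WT replicate 4 was the highest WT library for Ndufv1 (0.870), Ndufs8 (0.929), Ndufa3 (0.831), Ndufaf4 (0.846) and Ndufaf5 (0.930), and for the mean over the 42 members (0.851). LRP1 eKO replicate 1 was the highest LRP1 eKO library for Ndufs1 (0.923), whose LRP1 eKO signals differed little, and LRP1 eKO replicate 2 was the highest for Ndufaf4 (0.878). Without WT replicate 4, the log2 fold change was -0.16 for Ndufv1, -0.25 for Ndufs8 and -0.27 for Ndufa3, and all 3 genes still passed the test (limma adjusted p = 0.0071, 0.0026 and 0.0017).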

How the results depend on the processing

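The counts of calls depended on the threshold. At an adjusted p under 0.01, 9 members were lower and 0 higher (1536 and 1201 of all genes), and with a 2-fold change added 0 members were lower (90 lower and 99 higher of all genes). With each library left out, between 15 and 22 members were lower and 0 higher, the median log2 fold change of the members was between -0.22 and -0.12, and that of Lrp1 was between -3.80 and -3.42. Between 2024 and 2538 of all genes were then lower and between 1670 and 2200 higher. The sign turned for members with small changes that did not pass the test. With 1 library left out, the log2 fold change was between -0.15 and 0.031 for Ndufaf3, between -0.11 and 0.013 for Ndufa1, between -0.11 and 0.014 for Ndufb10, between -0.11 and 0.0095 for Ndufv3 and between -0.13 and 0.0020 for Ndufaf5, each at its highest without WT replicate 4. It was between -0.055 and 0.052 for Ndufb6, between -0.025 and 0.093 for Ndufaf2 and between -0.0041 and 0.13 for Ndufaf4. Array weights gave 0.023 for Ndufaf3 and 0.018 for Ndufb6. The causes were not tested.

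Samples with the same replicate number did not deviate together, with correlations of -0.086, -0.13, 0.18 and 0.038, and no WT library correlated best with its own number. With the replicate number as a block, 19 members were lower (2210 of all genes lower and 1975 higher). Ndufs4 then passed (adjusted p = 0.046), and the calls lost included that of Ndufa9 (0.056). Because depth is unknown, low signals such as those of the assembly factors carry no interval for counting error.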
